A study of Mus musculus with 27 samples.

Results

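The claudin genes described here are Cldn1, Cldn3, Cldn4, Cldn6, Cldn7, Cldn8, Cldn9, Cldn12, Cldn15 and Cldn23, taken by symbol from the RNA-seq table of 3 mK4 cell lines. They are 10 of the 24953 genes in that table and 10 of its 31 claudin genes. The mK4 line is a mouse cell line derived from the metanephric mesenchyme, the tissue from which nephrons arise. Control cells were the parental mK4 line. Runx1KO cells were made from it with CRISPR/Cas9 by removing exon 3 of Runx1, and ZebDKO cells by removing exon 2 of Zeb1 and exon 1 of Zeb2. All 3 lines therefore share the mK4 background and the same culture medium, and RNA came from 3 cultures of each line. ATAC-seq and ChIP-seq peak lists cover control and Runx1KO cells and leave out ZebDKO cells. Several clones of each knockout grew, and how many were sequenced is not stated, so clone and genotype cannot be told apart and the p-values below measure the spread between cultures. Whether the RNA libraries of all 3 lines were prepared and sequenced together is not stated either, so line and any batch cannot be told apart.

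Claudins are membrane proteins with 4 transmembrane segments that join neighbouring epithelial cells at the tight junction and set which ions pass between them. Some, such as claudin-1 and claudin-4, are known for sealing the space between cells, whereas claudin-2 and claudin-15 form channels for small cations. Along the nephron each segment makes its own set of claudins, and mesenchyme makes few of them. Zeb1 and Zeb2 are repressors that bind E-boxes with the letters CAGGTA or CAGGTG and are known for holding epithelial genes silent. Runx1 and Runx2 bind the letters TGTGGT.

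The sequences below lie in ATAC-seq peaks that opened in Runx1KO cells, except that of Cldn12, whose start lay in a peak open in both lines. Peaks less open in Runx1KO cells lay 18.3 kb past and 25.7 kb before the Cldn12 start. Capitals mark matches to CAGGTA or CAGGTG on either strand, so a match on the other strand reads TACCTG or CACCTG. The first is the 300 bases before the start of Cldn4 (mm9, chr5:135422805-135423104, minus strand), inside an ATAC-seq peak that opened in Runx1KO cells. The next is from 600 to 301 bases before the start of Cldn9 (chr17:23821286-23821585, minus strand), also inside such a peak. The next pair are the middle 300 bases of induced peaks, one 20.5 kb before the Cldn4 start between genes (chr5:135443127-135443426, plus strand) and one in an intron of Cldn1 (chr16:26369483-26369782, plus strand). The last is the 300 bases before the start of Cldn12 (chr5:5514959-5515258, minus strand), partly inside a peak open in both lines.
Cldn4 upstream: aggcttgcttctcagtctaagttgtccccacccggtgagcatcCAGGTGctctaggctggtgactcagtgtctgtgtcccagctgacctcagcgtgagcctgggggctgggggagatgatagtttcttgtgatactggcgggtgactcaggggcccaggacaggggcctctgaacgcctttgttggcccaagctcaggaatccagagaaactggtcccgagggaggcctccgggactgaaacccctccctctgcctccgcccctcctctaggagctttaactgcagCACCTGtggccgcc
Cldn9 upstream: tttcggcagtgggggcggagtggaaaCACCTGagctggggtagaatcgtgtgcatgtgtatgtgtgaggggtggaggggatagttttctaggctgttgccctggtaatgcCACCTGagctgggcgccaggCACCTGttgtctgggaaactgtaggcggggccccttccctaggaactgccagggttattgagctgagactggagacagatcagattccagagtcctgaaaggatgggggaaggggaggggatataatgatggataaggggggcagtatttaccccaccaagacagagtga
Cldn4 distal peak: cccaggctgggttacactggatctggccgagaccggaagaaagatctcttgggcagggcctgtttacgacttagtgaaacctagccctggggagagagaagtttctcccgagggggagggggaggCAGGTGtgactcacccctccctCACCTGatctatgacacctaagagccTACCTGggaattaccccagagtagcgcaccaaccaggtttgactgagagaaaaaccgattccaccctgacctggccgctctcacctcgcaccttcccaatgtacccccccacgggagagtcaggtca
Cldn1 intron peak: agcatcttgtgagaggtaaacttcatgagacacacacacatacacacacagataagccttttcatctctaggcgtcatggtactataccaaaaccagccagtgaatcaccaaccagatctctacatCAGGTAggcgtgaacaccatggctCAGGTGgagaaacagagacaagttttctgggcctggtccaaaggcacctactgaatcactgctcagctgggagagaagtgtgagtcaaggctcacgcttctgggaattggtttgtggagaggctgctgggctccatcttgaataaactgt
Cldn12 upstream: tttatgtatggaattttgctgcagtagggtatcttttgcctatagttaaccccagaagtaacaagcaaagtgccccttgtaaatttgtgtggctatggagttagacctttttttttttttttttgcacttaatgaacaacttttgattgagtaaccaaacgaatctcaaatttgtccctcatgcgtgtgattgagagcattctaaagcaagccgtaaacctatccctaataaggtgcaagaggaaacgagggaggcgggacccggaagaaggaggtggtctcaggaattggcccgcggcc
The stretches were chosen to show matches inside induced peaks, so their counts cannot be compared between genes. In the same window for every gene, the 300 bases before the start, 5 of 10 members hold at least 1 match, beside 28.3% of 20256 genes. Cldn8 holds 3, Cldn4 and Cldn23 hold 2 each, Cldn1 and Cldn6 hold 1 each, and Cldn3, Cldn7, Cldn9, Cldn12 and Cldn15 hold 0. These letters describe the sequence and do not show binding.

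RNA levels are given as TPM, a share of all transcripts that takes the length of each gene into account and has the same total in every library. Totals ran from 999984.9 to 999997.6 TPM over the 9 libraries, which hides the read depth, and values near 0 move in steps of 0.1 TPM. Between 12541 and 12697 genes reached 1 TPM in a library, and libraries of the same line correlated at r = 0.994 to 0.996 over 13374 genes. The targeted exons cannot be seen in TPM summed over a gene. Runx1 stood at 29.6 TPM on average in Runx1KO libraries and Zeb1 at 16.1 TPM in ZebDKO libraries, so these values do not check the labels. Of 10 metanephric mesenchyme markers, Pax2, Sall1, Hoxa11, Osr1, Eya1 and Gdnf were above 10 TPM on average in control cells. The defining progenitor gene Six2 did not pass 0.2 TPM in any library, Wt1 and Cited1 did not pass 0.3 and 0.4 TPM, and Hoxd11 was listed at 0 throughout. Blood markers summed to 0.2 TPM at most.

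Control cells carried 3 claudin mRNAs at more than 2 TPM, namely Cldn1, Cldn12 and the further claudin Cldn2. Runx1KO cells added Cldn4 and Cldn9, and ZebDKO cells added Cldn4 and, at lower levels, Cldn15 and Cldn9. Cldn4, a sealing claudin of the distal nephron and collecting duct, had 0, 0 and 0.4 TPM in control cells. It stood at 233.8, 223.8 and 237.2 TPM in the Runx1KO libraries and at 50.3, 45.9 and 45.7 TPM in the ZebDKO libraries. The 3 lines did not overlap, with Runx1KO highest and control lowest. Cldn9, a close relative of Cldn6 known from the inner ear and the newborn kidney, measured 0.3, 0.5 and 0.6 TPM in control libraries. Its values were 70.6, 74 and 66.8 TPM in Runx1KO and 4, 4.6 and 3.2 TPM in ZebDKO libraries, again in the order Runx1KO, ZebDKO, control without overlap. In bulk RNA, a change in how many cells express a claudin and a change in RNA per cell cannot be told apart.

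Cldn1, a sealing claudin of skin and of the parietal epithelium of the glomerulus, measured 44.7, 40 and 41.3 TPM in control libraries. Its values were 21.2, 18.4 and 19.7 TPM in Runx1KO and 50.5, 52 and 47.1 TPM in ZebDKO libraries. All Runx1KO libraries lay below all others, and all ZebDKO libraries lay above control. Cldn15, a cation channel best known from the intestine, was at 0.7, 0.6 and 0.8 TPM in control, 0.2, 0.4 and 0.4 TPM in Runx1KO and 3.8, 6.2 and 4.1 TPM in ZebDKO libraries. ZebDKO libraries stood apart above the other lines, and the Runx1KO libraries were the lowest. Cldn12, which lacks the PDZ-binding end that most claudins have, measured 22.4, 21.2 and 21.4 TPM in control and 20.5, 20.9 and 20.2 TPM in Runx1KO libraries. In ZebDKO libraries it stood at 19.9, 20.2 and 18.6 TPM, so that the whole range over the 9 libraries was 18.6 to 22.4 TPM.

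The other 5 members were at or near the lower limit of the table. Cldn6, a claudin of early embryonic epithelia, measured 0, 0.1 and 0 TPM in control, 1.2, 1.3 and 0.5 TPM in Runx1KO and 0.6, 0.7 and 1 TPM in ZebDKO libraries, so both knockout lines lay above control and overlapped each other. Cldn8, which works with Cldn4 in the collecting duct, was at 0.5, 1 and 1 TPM in Runx1KO libraries, at 0 in all control libraries and at 0.1, 0 and 0 TPM in ZebDKO libraries. In a further deposited table of the 6 control and Runx1KO libraries, Cldn8 is listed at 0 in every library, so its low values depend on the table. Cldn3, Cldn7 and Cldn23 did not reach 1 TPM in any library. Cldn3, which lies next to Cldn4 in the genome and has a like function, peaked at 0.4 TPM and Cldn7, a claudin of distal nephron epithelium, at 0.2 TPM, both in ZebDKO libraries. Cldn23 was listed at 0.1 TPM in 1 Runx1KO library and at 0 in the rest.

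**Figure D1:**
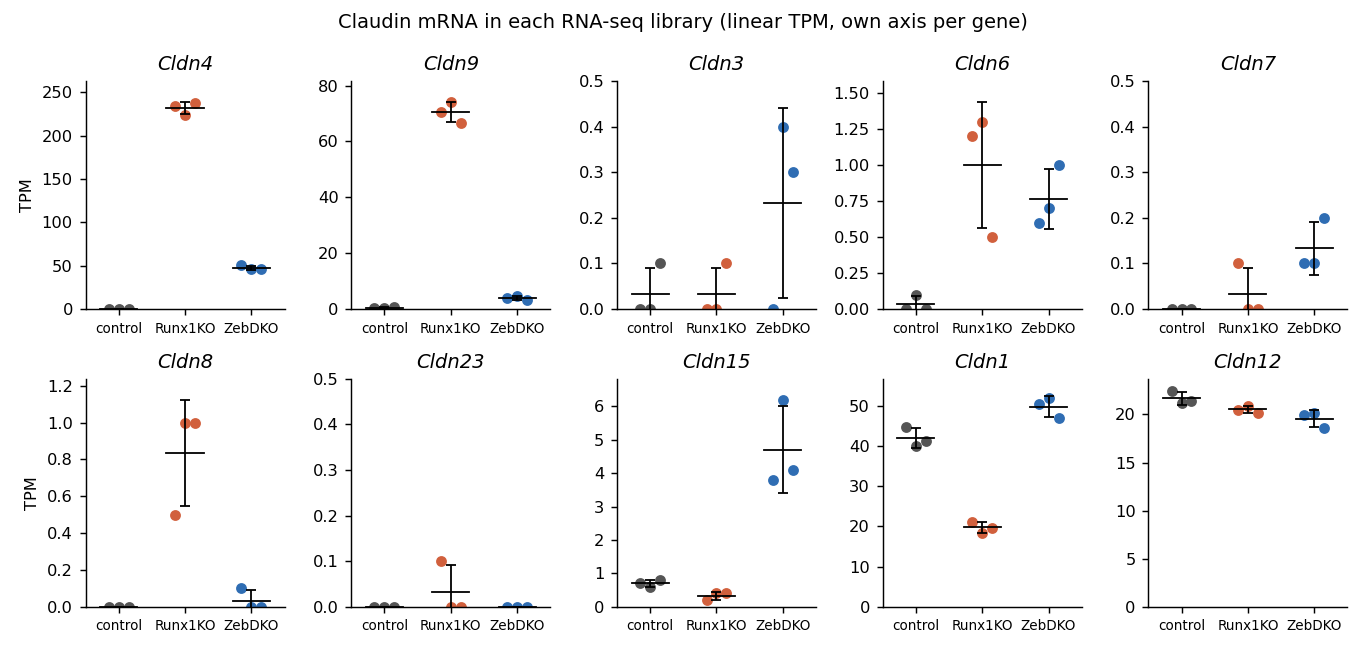
TPM of the 10 claudin genes (linear axis from 0, 1 panel and axis per gene) in each control, Runx1KO and ZebDKO library; points are libraries, long bars the mean and error bars the SD (n = 3). Cldn4 and Cldn9 stand highest in Runx1KO, Cldn15 and Cldn1 in ZebDKO, and Cldn12 lies between 18.6 and 22.4 TPM throughout, while Cldn3, Cldn7 and Cldn23 stay under 0.5 TPM.

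Within control cells Cldn1 was the most abundant claudin at 42.0 ± 2.43 TPM (SD, n = 3), ahead of Cldn12 at 21.7 ± 0.643 and Cldn2 at 10.1 ± 1.68 TPM. None of these 3 overlapped its neighbour in that order. In Runx1KO cells Cldn4 led with 232 ± 6.97 TPM, followed by Cldn9 with 70.5 ± 3.60 TPM, while Cldn12 (20.5 ± 0.351) and Cldn1 (19.8 ± 1.40) overlapped. In ZebDKO cells Cldn1 (49.9 ± 2.51) and Cldn4 (47.3 ± 2.6) overlapped at the top, ahead of Cldn12 with 19.6 ± 0.850 TPM, and Cldn15 (4.70 ± 1.31) overlapped Cldn9 (3.93 ± 0.702). The order between different genes depends on the gene lengths taken, which are not stated. In the 6-library table Cldn1 was at 22.85, 20.9 and 21.41 TPM and Cldn12 at 54.8, 52.46 and 52.97 TPM in control, which turns their order round. Cldn4 led in Runx1KO cells in both tables, at 131.27, 125.61 and 131.84 TPM in the 6-library table.

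Summed over all 31 claudin genes, TPM was 77.1 ± 3.35 in control (73.2 to 79.2), 348 ± 4.73 in Runx1KO (343 to 352.1) and 129 ± 5.29 in ZebDKO cells (122.9 to 132.6; SD, n = 3). The lines did not overlap. Sums and shares differ between the deposited tables: in the 6-library table control cells summed to 82.2 ± 2.16 TPM and Runx1KO cells to 234 ± 2.80 TPM, a ratio of 2.85 where the 9-library table gives 4.52. Cldn1 made up 54.5 ± 2.29% of the control sum, 38.7 ± 0.487% of the ZebDKO sum and 5.67 ± 0.330% of the Runx1KO sum. In the 6-library table its control share was 26.4 ± 0.704%, behind Cldn12 with 65.0 ± 0.912%. Cldn4 made up 66.5 ± 1.28% of the Runx1KO sum (55.4 ± 1.47% in the 6-library table) and 36.7 ± 1.88% of the ZebDKO sum. The share of Cldn2 went from 13.0 ± 1.91% in control to 0.745 ± 0.200% in Runx1KO and 0.904 ± 0.00912% in ZebDKO cells. Of the 21 claudins that are not members, 10 were at 0 in all 9 libraries, 10 were above 0 without reaching 1 TPM in 3 libraries, with a highest value of 1.7 TPM, and Cldn2 alone passed.

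**Figure D2:**
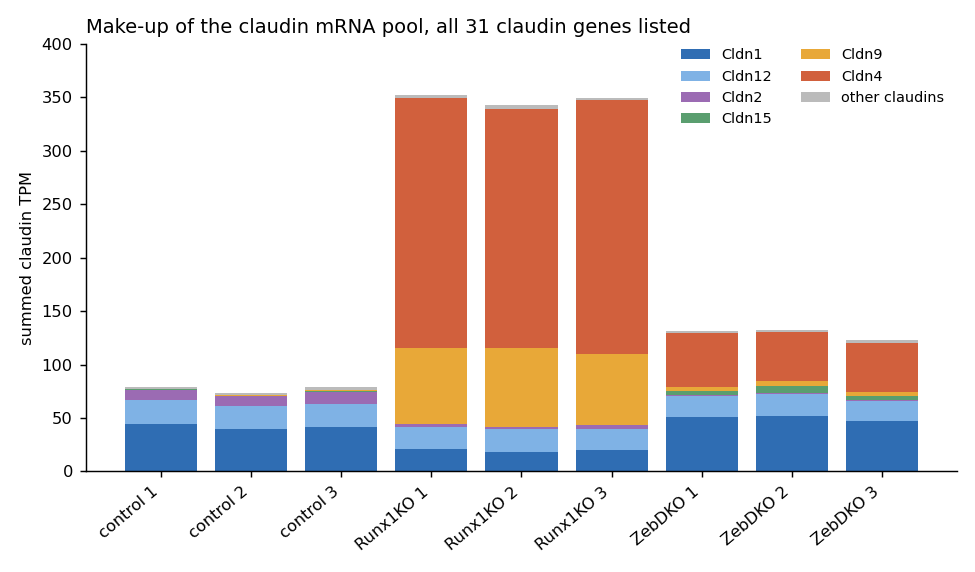
Summed TPM of the 31 claudin genes in each of the 9 libraries (stacked bars from 0), split into 6 named claudins and all others. The bars reach 73.2 to 79.2 TPM in control, 343 to 352.1 in Runx1KO and 122.9 to 132.6 in ZebDKO, with Cldn4 the tallest segment in Runx1KO and, in this table but not in the 6-library one, Cldn1 in control.

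The comparison of Runx1KO with control cells asked which claudin mRNAs change when Runx1 is lost. Of the 10 members 4 passed the filter of 1 TPM in at least 3 of the 6 libraries, and of these Cldn4 and Cldn9 rose, Cldn1 fell and Cldn12 did not pass the test. A gene was called when it differed over 2-fold on log2(TPM + 1) at a Benjamini-Hochberg adjusted p under 0.05 in limma. Of 13067 genes tested, 7.91% were called higher and 5.1% lower in this comparison. Because a filter on high values in either line keeps a silent gene only if it came up, the count of 2 members higher is a description. Cldn4 had a log2 fold change of 7.70 (SE 0.130, limma adjusted p = 1.89e-08), a size that rests on the 1 TPM added to a control mean near 0. Cldn9 had a log2 fold change of 5.61 (SE 0.0859, limma adjusted p = 1.31e-08), with a mean 151-fold that of control. Cldn1 had a log2 fold change of -1.05 (SE 0.0633, limma adjusted p = 7.46e-06), with a control mean 2.13-fold that of Runx1KO. It sits at the 2-fold limit, and with median-ratio scaling it was -0.99 and no longer called, which leaves 0 members lower. The log2 fold change of Cldn12 was -0.074 (95% interval -0.17 to 0.018, limma adjusted p = 0.127), so a change over 2-fold lies outside its interval.

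ZebDKO and control cells were compared to see which claudin mRNAs change when both Zeb genes are cut. This comparison uses the same control libraries as the one above, so the pair are not independent. Of 5 members tested, Cldn4, Cldn9 and Cldn15 rose and none fell over 2-fold, where 7.5% of 12974 genes were called higher and 7.28% lower (973 and 944 genes, or 1183 and 661 with median-ratio scaling). Each of the 3 was under 1 TPM in every control library, so the filter kept it only because it came up in ZebDKO cells. The count of 3 members higher is thus a description. Cldn4 had a log2 fold change of 5.43 (SE 0.136, limma adjusted p = 8.07e-08) and Cldn9 one of 1.75 (SE 0.134, limma adjusted p = 1.48e-05), with a mean 8.43-fold that of control. Cldn15 had a log2 fold change of 1.72 (SE 0.158, limma adjusted p = 3.67e-05), with a mean 6.71-fold that of control. The median of all genes tested was -0.18 here and 0.0040 after median-ratio scaling, so small differences are better read against it. Cldn1 had a log2 fold change of 0.24 (SE 0.0560, limma adjusted p = 0.00492), which passes on p and misses the 2-fold limit, and lay 0.43 above that median. Cldn12 had a log2 fold change of -0.14 (95% interval -0.26 to -0.026), which turned to 0.052 with median-ratio scaling and to 0.055 with quantile normalization and lay 0.044 above the median.

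The difference between the knockout lines was tested directly, without control libraries. Cldn4 and Cldn9 were higher in Runx1KO than in ZebDKO cells, Cldn1 and Cldn15 were lower, and Cldn6 and Cldn12 were not called, out of 6 members tested. Over all 13071 genes 9.2% were called higher and 6.59% lower (1203 and 861 genes, or 908 and 1058 with median-ratio scaling), with a median of 0.15. The mean of Cldn4 was 4.90-fold higher in Runx1KO cells (log2 fold change 2.27, SE 0.0450, limma adjusted p = 3.83e-08). That of Cldn9 was 17.9-fold higher (3.87, SE 0.103, limma adjusted p = 1.14e-07). Cldn1 was 2.52-fold higher in ZebDKO cells (log2 fold change -1.29, SE 0.0609, limma adjusted p = 1.28e-06). Cldn15 was 14.1-fold higher in ZebDKO cells (log2 fold change -2.08, SE 0.164, limma adjusted p = 1.63e-05), although the Runx1KO mean of 0.333 TPM rests on values of 0.2 to 0.4 TPM. The interval for Cldn6 ran from -0.27 to 0.59 on the log2 scale, and that for Cldn12 from -0.038 to 0.17, with the Cldn12 difference of 0.067 turning to -0.090 with median-ratio scaling and to -0.12 with quantile normalization.

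**Figure D3:**
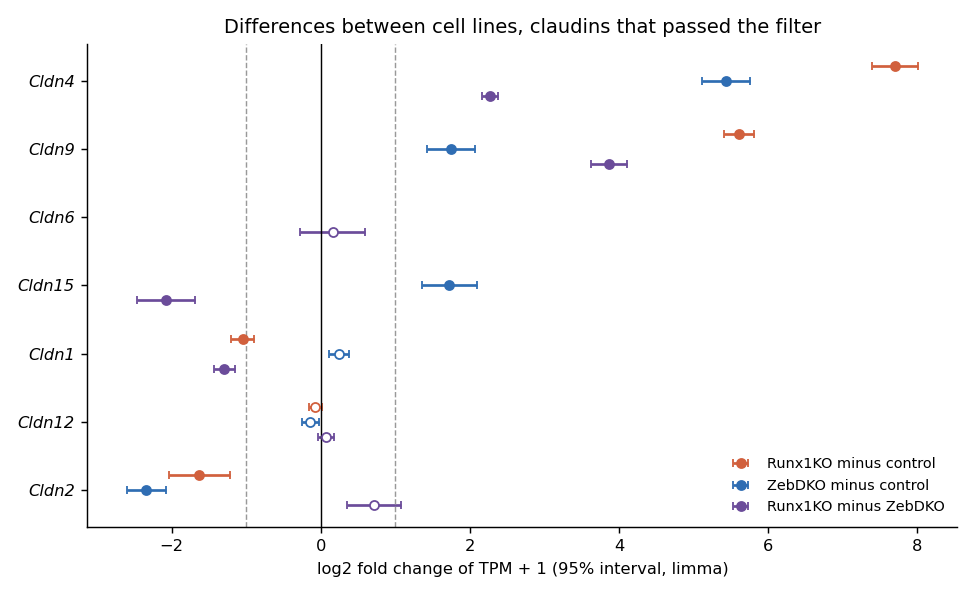
Log2 fold change on TPM + 1 (x axis) with 95% intervals from limma for the 6 members that passed the filter in any comparison and for Cldn2; colours mark the 3 comparisons, filled points are called, open points are not, and dashed lines mark 2-fold. Cldn4 and Cldn9 lie right of the limit in all 3 comparisons, and Cldn12 within 0.3 of 0; its sign in the comparisons with ZebDKO turns with the scaling.

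Cldn2, the cation channel of the proximal tubule, is the one further claudin that passed. It measured 9, 9.2 and 12 TPM in control, 2.8, 1.8 and 3.2 TPM in Runx1KO and 1.2, 1.2 and 1.1 TPM in ZebDKO libraries, with no overlap between any lines. It fell in both knockouts, with log2 fold changes of -1.63 (SE 0.171, limma adjusted p = 0.000126) in Runx1KO and -2.34 (SE 0.11, limma adjusted p = 1.51e-06) in ZebDKO cells. Between the knockouts it differed by 0.71 (95% interval 0.36 to 1.07, limma adjusted p = 0.00325), short of the 2-fold limit, and by 1.06 with a pseudocount of 0.1 TPM. Thus the channel claudins Cldn2 and Cldn15 moved differently in ZebDKO cells, the first lower and the second higher than control.

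The genome around each member was then read from the ATAC-seq and ChIP-seq peak lists on mm9. The deposited ATAC-seq lists hold peaks more open in Runx1KO cells (induced, 9427), peaks less open there (dependent, 8741) and the rest (stable, 37481). The lists are 1 per class and carry no replicate values, so the replicate spread of a peak is unknown. Cldn4 (ENSMUSG00000047501.2, chr5:135420996-135422804, minus strand) and Cldn9 (ENSMUSG00000066720.4, chr17:23819552-23820985, minus strand) were the only members whose transcription start lay in an induced peak. That is 2 of 10, where 2.24% of the 20260 genes of the table with a position have their start in such a peak. Of the 364 genes tested in RNA-seq whose start lay in an induced peak, 73.1% were called higher in Runx1KO cells and none lower. The start of Cldn1 (ENSMUSG00000022512.2, chr16:26356728-26371927, minus strand) and that of Cldn12 (ENSMUSG00000046798.7, chr5:5505109-5514958, minus strand) lay in stable peaks, as did 43.7% of all starts. The other 6 starts lay in no peak of any class.

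The induced peak at the Cldn4 start spans 834 bp (chr5:135422380-135423213), with its middle 8 bp past the start, in the untranslated part of the single exon. It holds 3 matches to CAGGTA or CAGGTG, whose nearest bases lie 252 and 9 bp before the start and 11 bp after it. A further 5 induced peaks lie 4.58, 12.4, 19.3, 20.5 and 34.5 kb before the start, all between genes and all in the 39280 bp that separate the Cldn4 start from that of Cldn3. Of these, the peak at 4.58 kb holds 5 matches and the one at 20.5 kb holds 3. The peak at 19.3 kb, the widest at 1326 bp, holds none and has 1 match to AACNGGTT, the letters bound by Grhl proteins. Cldn3 (ENSMUSG00000070473.2, chr5:135462084-135463342, plus strand) shares these peaks and has another 15.3 kb past its start, and still it was at 0, 0 and 0.1 TPM in Runx1KO libraries.

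The induced peak at the Cldn9 start spans 1348 bp (chr17:23820318-23821665) and holds 3 matches, 465, 485 and 569 bp before the start. Cldn6 (ENSMUSG00000023906.2, chr17:23816332-23819413, plus strand) runs toward Cldn9, and 138 bp lie between the ends of both genes. An induced peak of 430 bp lies in the coding exon of Cldn6, 1.89 kb past its start, while the start itself lay in no peak. Reads near such facing ends could be shared if counting ignored strand, and the strand setting is not stated. The other induced peaks in this region lie 22.1 kb before and 23.5 and 26.0 kb after the Cldn9 start. Cldn9 at 70.5 TPM and Cldn6 at 1 TPM in Runx1KO cells thus share the same 5 induced peaks within 50 kb.

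Cldn1 had 2 induced peaks, one of 341 bp in its intron 2.29 kb past the start and one 42.6 kb before it, although its mRNA was lower in Runx1KO cells. Cldn7 had 2, at 2.90 and 28.9 kb before its start, with mRNA at 0.1, 0 and 0 TPM in Runx1KO libraries. Cldn12, Cldn15 and Cldn23 had none, and Cldn8 had no peak of any list within 50 kb. In all 6 of 10 members had an induced peak within 50 kb, against 40.7% of genes with a position. The count of 6 includes Cldn3 with Cldn4 and Cldn6 with Cldn9, which share peaks. Dependent peaks lay within 50 kb of 4 members (28.8% of genes) and stable peaks of 9 (79.4%). Cldn2, which fell, had 5 dependent peaks within 50 kb and no induced one, the nearest with its middle 472 bp before the start.

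The 16 separate induced peaks near members were searched for the consensus letters on both strands. At least 1 match to CAGGTA or CAGGTG occurred in 15 of them, beside 78.9% of all induced, 58.8% of stable and 40.5% of dependent peaks. Per length the members' peaks held 2.93 matches per kb and all induced peaks 2.85. TGTGGT occurred in 8 of the 16 (35.4% of all induced and 54.5% of dependent peaks) and AACNGGTT in 2 (4.92% of all induced peaks). Only the density per kb takes the width of peaks into account, and no chance test was made on these counts.

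None of the 16 induced peaks overlapped a Runx1 ChIP-seq peak of control cells, where 1.25% of all induced peaks do. One of them, the peak past the Cldn3 start, overlapped a Runx2 peak of Runx1KO cells (3.28% of all induced peaks). No Runx1 peak lay within 50 kb of the Cldn4 or the Cldn3 start. Around Cldn6 and Cldn9 there were 3 Runx1 peaks near the gene Tnfrsf12a, 1.88, 2.63 and 3.4 kb before the Cldn6 start. The same peaks lie 6.53, 7.28 and 8.06 kb past the Cldn9 start. They had folds over background of 3.82, 4.82 and 6.13 and -log10 q values of 4.49, 8.34 and 13.6. Within 50 kb, 7 of 10 members had a Runx1 peak, where 43.4% of genes do, and the 11 separate peaks lay in stable peaks in 8 cases, in a dependent peak in 1, in no ATAC-seq peak in 2 and in an induced peak in 0. Cldn12 had 3 of them, of which one, 18.4 kb past the start, lay in a dependent peak, and its mRNA did not pass the test. Runx2 peaks lay within 50 kb of 9 members both in control cells (64.0% of genes) and in Runx1KO cells (62.6%), Cldn8 being the exception. The nearest Runx1 peak to Cldn1 lay 29.4 kb before its start, with a fold of 5.30 and a -log10 q of 6.77.

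**Figure D4:**
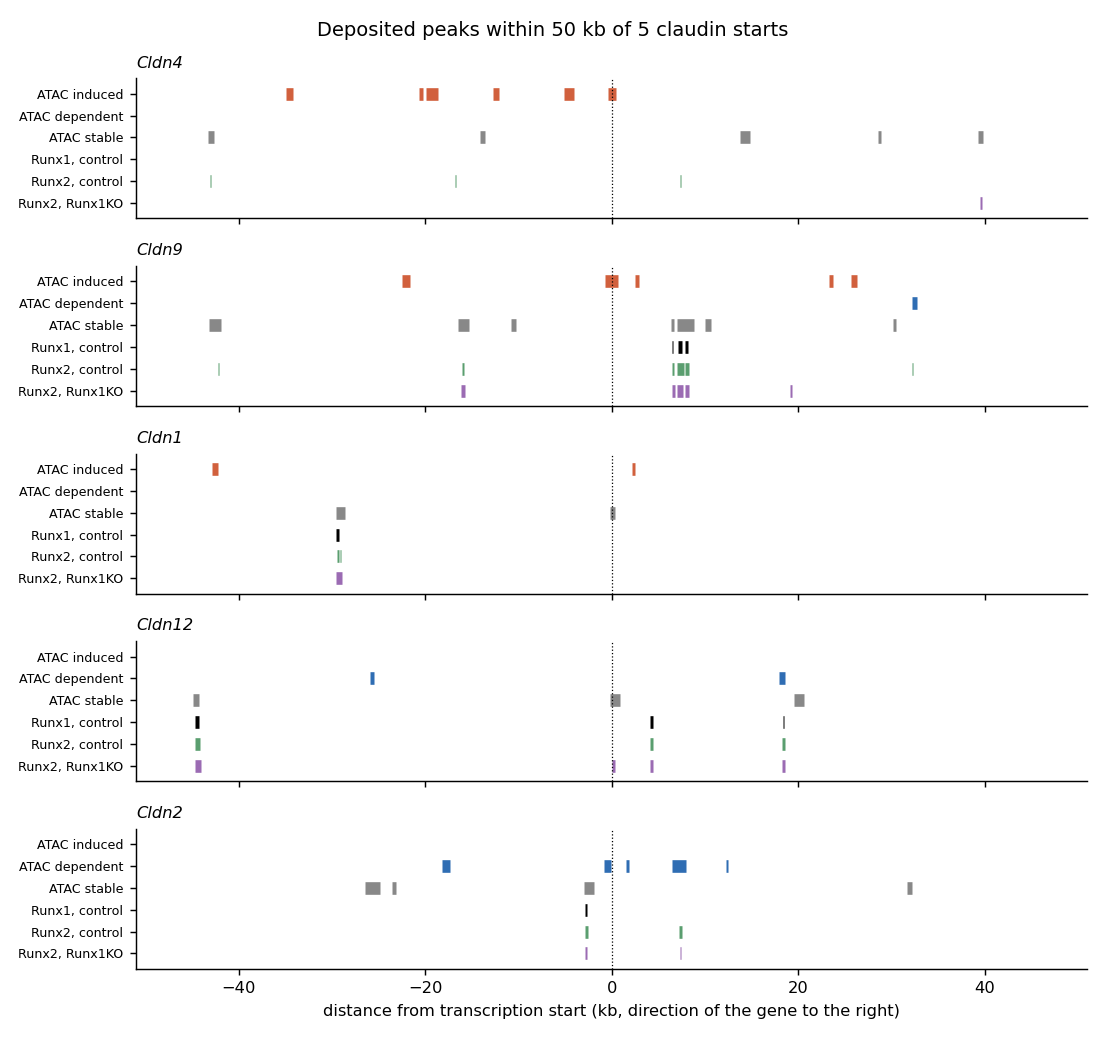
Peaks with their middle within 50 kb of the transcription starts of Cldn4, Cldn9, Cldn1, Cldn12 and Cldn2 (x axis, kb, gene direction to the right), 1 row per deposited list: induced, dependent and stable ATAC-seq peaks, Runx1 peaks of control cells and Runx2 peaks of control and Runx1KO cells; bar width is peak width. Induced peaks cover the starts of Cldn4 and Cldn9, stable ones those of Cldn1 and Cldn12, and Cldn2 shows 5 dependent peaks.

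Claudins act with other junction proteins, so a list of 36 names of tight junction and polarity genes, of which 34 are in the table, was counted in the same fits. In Runx1KO against control cells 11 of 26 tested were higher and 2 lower, with a median log2 fold change of 0.83 beside -0.059 over all genes, of which 7.91% were higher and 5.1% lower. In ZebDKO against control cells 12 of 27 were higher and 1 lower, with a median of 0.70 beside -0.18, where 7.5% and 7.28% of all genes were. Between the knockouts 6 of 28 were higher in Runx1KO and 5 lower, with a median of 0.079 beside 0.15, where 9.2% and 6.59% of all genes were.

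Crb3, an apical polarity protein, measured 0.5, 0.5 and 0.8 TPM in control, 56.3, 55.9 and 60.7 TPM in Runx1KO and 54.5, 52.6 and 58.3 TPM in ZebDKO libraries. The knockouts overlapped and differed by 0.063 on the log2 scale (95% interval -0.056 to 0.18). Lsr, the angulin of tricellular corners, was at 0.3, 0.5 and 0.2 TPM in control, 25.4, 25.3 and 23.5 TPM in Runx1KO and 58.1, 56.5 and 60.1 TPM in ZebDKO libraries, higher in ZebDKO by 2.35-fold (limma adjusted p = 4.25e-07). Cgn, the plaque protein cingulin, went from 6.20 TPM in control to 53.3 in Runx1KO and 86.6 in ZebDKO cells on average. Spint2, an inhibitor of membrane serine proteases, stood at 18.1, 151 and 158 TPM. These 4 are the list members called in both comparisons with control that had the largest mean rise. Unlike Cldn4 and Cldn9, none of them was over 2-fold higher in Runx1KO than in ZebDKO cells.

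Jam3, a junctional adhesion molecule, fell in both knockouts, from 31.1, 29.1 and 32 TPM in control to 0.8, 0.1 and 0.7 TPM in Runx1KO and 5.3, 6.9 and 6.3 TPM in ZebDKO libraries. The log2 fold changes were -4.40 (limma adjusted p = 1.04e-06) and -2.15 (limma adjusted p = 7.83e-07). Amot, an angiomotin that binds polarity proteins, fell in Runx1KO cells from 121 ± 13.4 to 37.1 ± 0.917 TPM (SD, n = 3; log2 fold change -1.67, limma adjusted p = 2.06e-06) and stood at 86.3 ± 3.66 TPM in ZebDKO cells. In Runx1KO cells 11 of the 26 tight junction genes tested were thus higher and 2 lower, beside 7.91% and 5.1% of all genes. Of the claudin members 2 were higher and 1 lower, the latter being Cldn1, which was not called with median-ratio scaling.

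A list of 21 transcription factors that act on epithelial genes was read beside the claudins. In Runx1KO against control cells 5 of 16 tested were higher and 2 lower, beside 7.91% and 5.1% of all genes. Zeb1 measured 15.1, 14.2 and 15.6 TPM in control and 0.1, 0.2 and 0.2 TPM in Runx1KO libraries, and Zeb2 5.5, 4.9 and 5.2 TPM in control and 0.2 TPM in each Runx1KO library. Their log2 fold changes were -3.77 (limma adjusted p = 2.78e-08) and -2.37 (limma adjusted p = 3.06e-07). Grhl2, an activator of junction genes including Cldn4, measured 0.1 TPM in each control library, 5, 5 and 4.9 TPM in Runx1KO and 1.1, 1.4 and 0.9 TPM in ZebDKO libraries. The order Runx1KO, ZebDKO, control is the one seen for Cldn4 and Cldn9, and Klf5, Ehf and Snai2 of this list share it. Snai2, which was not called against control, averaged 8.4 TPM in Runx1KO, 5.37 in ZebDKO and 4.6 in control cells. A link between these regulators and the claudin values was not tested. The Runx1KO mean of Grhl2 was 4.38-fold the ZebDKO mean (log2 fold change 1.49, limma adjusted p = 6.29e-06). It did not pass the filter against control in ZebDKO cells.

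The other regulators higher in Runx1KO cells were Elf3, Klf5, Ehf and Ovol1, all known from epithelia. Elf3 was at 32.0 ± 2.86 TPM in control, 121 ± 2.26 in Runx1KO and 128 ± 6.26 in ZebDKO cells, and was the 1 of 14 tested that rose in ZebDKO cells, while 2 fell (7.5% and 7.28% of all genes). Klf5 went from 105 ± 5.57 to 213 ± 2.77 TPM, Ehf from 1.03 ± 0.306 to 3.53 ± 0.569 TPM and Ovol1 from 0.733 ± 0.306 to 3 ± 0.458 TPM in Runx1KO cells. The ZebDKO means of Klf5, Ehf and Ovol1 were 143 ± 8.32, 1.6 ± 0.1 and 0.733 ± 0.0577 TPM. In ZebDKO cells Zeb2 fell to 1.7 ± 0.1 TPM and Tfcp2l1, a factor of the distal nephron, from 16.5 ± 1.13 to 7.63 ± 0.586 TPM. The log2 fold change of Tfcp2l1, -1.02, sits at the 2-fold limit, in a comparison where the median of all genes was -0.18. Runx1 and Runx2 were not called against control in either knockout. Between the knockouts Grhl1, Grhl2, Ovol1 and Runx1 were higher in Runx1KO and Zeb1, Zeb2 and Snai1 higher in ZebDKO cells, 4 and 3 of 16 tested (9.2% and 6.59% of all genes).

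Some markers of epithelium moved with Cldn4 and Cldn9 and others did not. The sum of Cdh1, Epcam, Krt8, Krt18 and Krt19 ran from 2.7 to 4.5 TPM in control, from 2420.7 to 2512.6 TPM in Runx1KO and from 1102.8 to 1157.9 TPM in ZebDKO libraries. Krt8 carries this order of lines, with means of 2.43, 2353 and 1050 TPM, and Krt19 shares it with 0.667, 87.0 and 4.53 TPM. The other 3 were higher in ZebDKO than in Runx1KO cells. Krt18 stood at 0.133 TPM in control, 32.4 in Runx1KO and 42.8 in ZebDKO cells, and Epcam was listed at 0 in all control and Runx1KO libraries and averaged 27.9 TPM in ZebDKO cells. Cdh1, the defining adhesion molecule of epithelium, did not pass 0.6 TPM in any library.

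Markers of mesenchyme, mostly Vim, summed to 3074.9 to 3206.3 TPM in control, 2943.5 to 3005.5 TPM in Runx1KO and 2356.1 to 2390.9 TPM in ZebDKO libraries. Single markers differed in their order of lines. In control, Runx1KO and ZebDKO cells Vim averaged 2803, 2806 and 2089 TPM and Cdh2 267, 142 and 183 TPM. Fn1 averaged 52.6, 18.0 and 97.3 TPM and Col1a1 2.03, 1.97 and 3.4 TPM, both highest in ZebDKO cells. Col1a2 and Pdgfrb did not pass 1.5 TPM in any library. Among the metanephric markers Osr1, Gdnf and Eya1 were called lower in Runx1KO than in control cells, with means of 66.4 and 0.4 TPM, 12.7 and 0.1 TPM, and 16.2 and 5.87 TPM. In ZebDKO cells Osr1 stood at 18.2, Gdnf at 39.8 and Eya1 at 17 TPM. Other markers of that list were not lower in Runx1KO cells. In control, Runx1KO and ZebDKO cells Pax2 averaged 313, 470 and 222 TPM and Sall1 52.1, 65.7 and 37.0 TPM. Hoxa11 averaged 214, 212 and 292 TPM, and none of these was called against control. The list summed to 670.6 to 681.8 TPM in control, 716.4 to 784.6 in Runx1KO and 615.3 to 645.5 in ZebDKO libraries. Endothelial markers summed to 2.9 to 4.7 TPM in control, 1 to 1.3 TPM in Runx1KO and 3.6 to 5.9 TPM in ZebDKO libraries, and markers of glia and neurons to 1.6 to 1.9, 3.5 to 3.7 and 0.5 to 0.6 TPM. The part of all these markers in the claudin values was not tested.

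The genes whose pattern over the 9 libraries was most like that of Cldn4, the member with the highest mean, were F2rl1, Xlr3a, Pkp3, AA986860 and Lmo7, with Pearson r of 0.9989 to 0.99941 on log2(TPM + 1). Pkp3 codes for a desmosomal plakophilin and F2rl1 for a receptor cleaved by serine proteases. Pkp3 stood at 0.267 ± 0.0577 TPM in control, 33.5 ± 0.173 in Runx1KO and 12.0 ± 0.551 in ZebDKO cells, and F2rl1 at 105 ± 2.91, 340 ± 4.87 and 242 ± 3.01 TPM. In all 116 of 13373 genes reached r over 0.99 with Cldn4, and since the 9 points are 3 lines of 3 libraries, this likeness is mostly that of 3 means.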

How the data were processed

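Control, Runx1KO and ZebDKO mK4 cells were profiled by RNA-seq (3 libraries each), and the first pair also by ATAC-seq and by ChIP-seq of both Runx factors. The authors used Trim Galore for trimming and STAR for alignment to mm9, took out duplicates, counted RefSeq genes with featureCounts 1.6.2 and deposited TPM, with gene lengths and strand setting not stated. For ChIP-seq the authors called MACS2 peaks on combined replicates and deposited fold over background, a ratio, and -log10 q. Runx1 peaks also found with that antibody in Runx1KO cells had been removed. For ATAC-seq they kept peaks found in at least 2 of 3 replicates and deposited 3 classes, which meet at 2-fold in the fold column of the lists; the test behind the classes is not stated. The fold and p columns of the ATAC-seq lists hold the authors' own comparison and were not used.

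Here genes reaching 1 TPM in 3 or more of the 6 libraries compared were kept, and log2(TPM + 1) was fitted with limma 3.58.1 (R 4.3.3), with a trend in the prior variance, two-sided moderated tests and Benjamini-Hochberg adjustment over all genes tested, as no counts were among the files. A gene was called over 2-fold at adjusted p under 0.05. The fit was tested on simulated data. Sequence was read with pysam 0.24.0 from NCBIM37 (mm9), and starts came from GENCODE vM1, where 20260 of the 24953 symbols (81.2%) had 1 position. Peaks were assigned by their middle within 50 kb of a start. Alternatives were other pseudocounts, filters, scalings, fold limits and windows, a replicate block, a joint fit, left-out libraries and the 6-library table. Named were all 10 members, other claudins reaching 1 TPM in 3 of 9 libraries, tight junction genes called in both knockouts with the 4 largest mean changes or called lower, the regulators Zeb1, Zeb2, Runx1, Runx2, Grhl2 and any other called, and the 5 genes most like Cldn4. Snai2 was named as well, for its order of lines. The members and the lists were chosen with earlier results of these data known.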

Additional observations from a re-analysis of the deposited data

Results flagged for a closer look

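Of the 6 members tested between the knockout lines, 4 differed by over 2-fold at an adjusted p under 0.05 in limma. The differences of both lines from the shared control were thus unequal for them, and genotype, clone and any batch cannot be told apart here. The log2 fold change of Runx1KO minus ZebDKO was 2.27 for Cldn4 and 3.87 for Cldn9, with every Runx1KO library above every ZebDKO library. It was -1.29 for Cldn1 and -2.08 for Cldn15, with every ZebDKO library above every Runx1KO library. Groups of 3 libraries are too small for the check on single outlying samples, so none was made.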

How the results depend on the processing

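TPM keeps no depth, so the counting error of the low members is unknown, and their 0.1 TPM steps limit what can be seen under 1 TPM. Of 644 recomputed values, 603 stayed the same by the rule for their kind. A fold change had to keep its direction and its call at 2-fold and adjusted p together. Counts had to stay within 1.5 times, and medians over all genes had to move by under 0.1. The adjusted p alone moved more: that of Cldn12 in ZebDKO cells, 0.0300, ran from 0.0127 to 0.331, and that of Cldn6 between the knockouts, 0.443, from 0.0442 to 0.840. Cldn4, Cldn9 and Cldn15 kept their calls under every alternative that fitted them; a filter of 5 TPM dropped Cldn9 and Cldn15 from the ZebDKO comparison, leaving 1 member higher, and left 1 member lower between the knockouts. The log2 fold change of Cldn4 in Runx1KO cells ran from 6.90 (6-library table) to 10.40 (pseudocount of 0.1 TPM), and with that pseudocount Cldn2 was called between the knockouts at 1.06. Median-ratio scaling took Cldn1 in Runx1KO cells to -0.99, with 0 members lower. Cldn12 reversed to 0.052 (ZebDKO against control) and to -0.090 (between the knockouts) with it, and to 0.055 and -0.12 with quantile normalization; the cause was not tested. Median-ratio scaling moved the calls over all genes from 973 higher and 944 lower to 1183 and 661 in ZebDKO cells, and from 1203 and 861 to 908 and 1058 between the knockouts, where quantile normalization gave 907 and 1000.

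A limit of 1.3-fold raised the tight junction counts in Runx1KO cells to 17 higher and 4 lower, the lower count in ZebDKO cells to 5 and the higher count between the knockouts to 11. Over all genes it raised 1034 higher and 666 lower to 2413 and 2444 in Runx1KO cells, 973 and 944 to 2244 and 4502 in ZebDKO cells, and 1203 and 861 to 4376 and 2404 between the knockouts. The filter of 5 TPM lowered 666 to 442 and 861 to 566, since it tests fewer genes. With windows of 20 and 100 kb, members with a dependent peak numbered 1 and 7 and, with 20 kb, those with a Runx1 peak 4. Leaving out any 1 library changed no member's call. The replicate numbers do not pair the cultures (same-number correlations from -0.0495 to 0.0399), and the replicate block changed no call among the 18 claudin values; in Runx1KO cells it left 2 members higher and 1 lower.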

Other observations

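EpCAM, the product of Epcam, is a membrane protein known to bind claudin-7, and the membrane serine protease matriptase (St14) is known to cleave it. These genes were picked after their values were seen. Epcam was listed at 0 in all control and all Runx1KO libraries and at 28.3, 26.7 and 28.8 TPM in the ZebDKO libraries. Between the knockouts it differed, with a log2 fold change of Runx1KO minus ZebDKO of -4.85 (limma adjusted p = 9.02e-09), a size that rests on the 1 TPM added to values of 0. St14 measured 0, 0.1 and 0 TPM in control, 0.3, 0.5 and 0.5 TPM in Runx1KO and 3.8, 3.6 and 4.2 TPM in ZebDKO libraries, with no overlap between lines. Its difference between the knockouts was -1.76 (limma adjusted p = 2.65e-06).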
